A study of Homo sapiens with 4 samples.

Results

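Notch receptors, their ligands, the nuclear proteins of the pathway and their target genes were followed in clear cell renal carcinoma cells with and without restored VHL. Of 10 gene symbols named for the pathway (NOTCH1, NOTCH2, NOTCH3, JAG1, JAG2, HES1, HEY1, NRARP, MAML1 and RBPJ), 9 had a row among the 12912 genes of the count table, and NOTCH3 was not analysed here. The members were chosen by symbol, with earlier results of these data known, so their shares and medians beside those of all genes are descriptions. Each of the 9 symbols had 1 row, and all 9 passed the filter on low counts. 786-O is an established clear cell renal carcinoma line that lacks functional VHL, the substrate-binding subunit of a ubiquitin ligase that marks hypoxia-inducible factors for degradation. The control group, 786-O-Ctrl, is labelled VHL-null and is called Ctrl, and the other group, 786-O-VHL, was given HA-tagged VHL by a retroviral vector and is called VHL-restored. Both are named in the labels as triple-reporter sublines, which express a fusion of GFP, luciferase and thymidine kinase, while the methods of the study name the sublines without the reporter. Whether 786-O-Ctrl carries an empty vector is not given in the sources used here. RNA of each subline was sequenced in 2 libraries, so the comparison is between 1 subline and another, and p-values measure only the spread between these libraries.

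Notch receptors are single-pass membrane proteins that are activated by ligands on a neighbouring cell. Binding exposes the receptor to ADAM proteases and then to the γ-secretase complex, which frees the intracellular domain to enter the nucleus. There it binds the DNA-binding protein RBPJ and a Mastermind coactivator such as MAML1, and the complex switches on genes such as HES1 and HEY1, which encode transcriptional repressors, and NRARP, which encodes a feedback inhibitor of the pathway. In kidney development Notch signaling takes part in the patterning of nephron segments.

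HES1 is the textbook target, and the bases just before its start are shown because they hold letters of the RBPJ motif. In the RefSeq promoter (GRCh38.p14, chr3:194136038-194136108, plus strand) the heptamer GTGGGAA lay once, and its last 6 letters, TGGGAA, were found a second time downstream. JAG1, the member with the largest change, is shown with the core letters of the motif of hypoxia-inducible factors, ACGTG and GCGTG, on either strand (GRCh38.p14, chr20:10674010-10674140, minus strand). The capitals mark the matches in each sequence, written 5′ to 3′ on the strand of the gene.
HES1: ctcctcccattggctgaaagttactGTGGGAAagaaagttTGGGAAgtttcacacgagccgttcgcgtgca
JAG1: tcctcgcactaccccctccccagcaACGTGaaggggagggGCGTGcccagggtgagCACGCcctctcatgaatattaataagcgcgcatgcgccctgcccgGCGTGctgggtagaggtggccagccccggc
The 250 bases before the start were searched on both strands for 8 of the 9 members, which had an entry. GTGGGAA was found in 1 of the 8, HES1, and in 5.43% of 35116 promoters, and TGGGAA, which overlaps it, occurred in 1 of the 8 and in 20.8% of all. ACGTG was found in 1 of the 8, JAG1, and in 18.5% of all, and GCGTG in 6 of the 8 and in 32.2% of all. These matches describe letters in the window and say nothing of binding.

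Depth ranged from 2807779 counts in VHL-restored replicate 1 to 22141263 in the deeper Ctrl library, with 15714166 in the shallower Ctrl library and 16114120 in VHL-restored replicate 2. Both control columns carry the same replicate number and are called here the deeper and the shallower library. Levels are given as CPM, counts scaled to the library total and to edgeR's TMM factor, and each log2 fold change is of VHL-restored cells over Ctrl, with its standard error (SE). A change was called at an edgeR false discovery rate (FDR) under 0.05, adjusted over 12335 genes, and with 2 libraries against 2 a two-sided exact permutation test cannot go below 0.333. The restored gene itself was at 42.9 and 43.9 CPM in Ctrl and at 178 and 163 CPM in VHL-restored cells, and counts per gene do not separate the vector from the endogenous gene. All 6 markers of a renal carcinoma line (PAX8, PAX2, KRT8, KRT18, VIM and CDH2) were present. Of these, PAX8, PAX2, KRT8 and VIM were lower in VHL-restored cells, where 31.9% of all genes tested were lower. VIM had the largest fall, with a log2 fold change of -1.21 (SE 0.0605, edgeR FDR = 3.66e-16). Of 9 markers of other cells, PTPRC, CD3E, VWF and ALB were not analysed here, and the other 5 summed to 13.8 and 14.3 CPM in Ctrl and to 25.2 and 26.5 CPM in VHL-restored cells. Of the 4 of these that were tested, EPCAM, CDH1 and PDGFRB were higher in VHL-restored cells, where 32.6% of all genes tested were higher. CDH1 had the largest rise, from 0.142 and 0.133 CPM in Ctrl to 2.37 and 4.16 CPM. It had 3 and 2 counts in Ctrl and 7 and 70 in VHL-restored cells, a log2 fold change of 4.67 (SE 0.527, edgeR FDR = 9.84e-09). No marker with a row was at 0 in every library. EPCAM and CDH1 were listed for other epithelium, and whether other cells or the line itself gave their rise was not tested. The part of this shift in the results on Notch genes was not tested either. A level is an average over a culture, so a change in the share of cells that express a gene and a change per cell cannot be told apart.

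A set of 5 members rose with VHL restoration, namely both ligands, JAG1 and JAG2, and all 3 targets, HES1, HEY1 and NRARP. NOTCH1 and RBPJ fell by less than 1.5-fold, and NOTCH2 and MAML1 did not pass the test. The counts are thus 5 of 9 higher and 2 of 9 lower, where 32.6% of all genes tested were higher, 31.9% were lower and 64.5% passed in either direction. With library totals alone in place of TMM factors, 6 members were higher and 1 was lower. With DESeq2, 4 were higher and 1 was lower, as was the case after random thinning of all libraries to the shallowest depth. The median log2 fold change of the 9 members was 0.73, beside 0.02 over the 12335 genes. For 7 of the 9 the libraries of the groups did not overlap, 5 with the VHL-restored libraries above and 2 with them below. Over all genes tested, 80.0% did not overlap, 40.8% with the VHL-restored libraries above and 39.2% below. None of the 9 passed a 4-fold change with an FDR under 0.01, which 4.46% of all genes did.

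**Figure D1:**
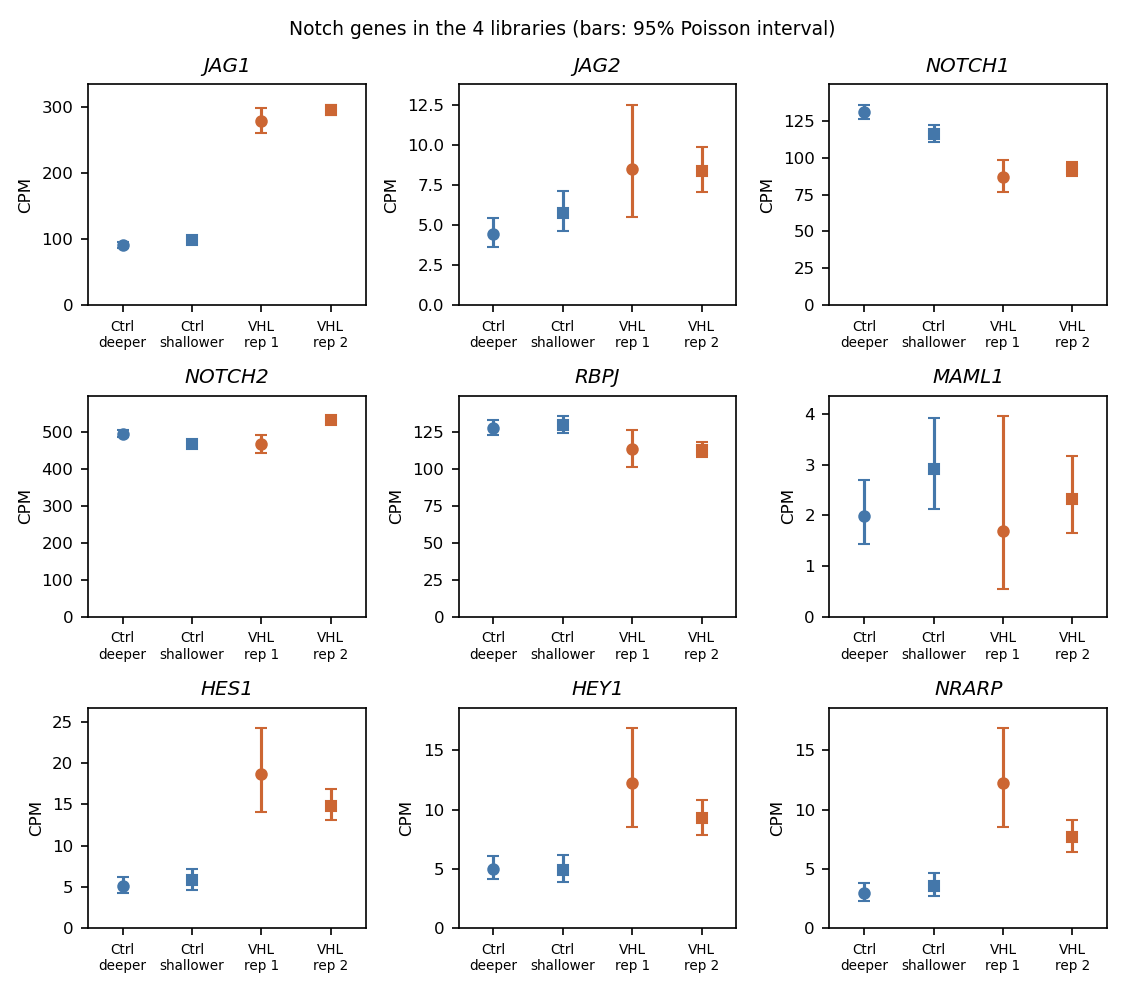
Level of each of the 9 Notch genes in CPM (linear axis from 0) in the deeper and the shallower Ctrl library (blue) and in VHL-restored replicates 1 and 2 (orange), with 95% Poisson intervals that cover counting error only. Both VHL-restored points lie above both Ctrl points for JAG1, JAG2, HES1, HEY1 and NRARP and below them for NOTCH1 and RBPJ, and the intervals are widest in VHL-restored replicate 1.

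JAG1 encodes a membrane ligand of the Serrate/Jagged class. Its mRNA was at 91.1 and 99.1 CPM in the deeper and the shallower Ctrl library and at 278 and 295 CPM in VHL-restored replicates 1 and 2. The groups did not overlap, and the libraries within a group lay close together. The change was 1.60 on the log2 scale (SE 0.0666, edgeR FDR = 6.47e-18), a 3.04-fold rise, and 4.52% of the tested genes had a larger one. JAG1 (ENSG00000101384.12) is a minus-strand gene of chromosome 20 (GRCh37, 10618332 to 10654647), with 1 annotated long noncoding RNA on the opposite strand, whose reads could have been counted on it because the use of strand is not given. Positions of the other genes are of the same build.

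JAG2, a second ligand of the same class, was scarcer than JAG1, also per exon length. It was at 4.46 and 5.78 CPM in Ctrl and at 8.48 and 8.37 CPM in VHL-restored cells, on 94 and 87 counts and on 25 and 141 counts. Both VHL-restored libraries were higher, and the difference was less firm than for JAG1. The log2 fold change of 0.73 (SE 0.213, edgeR FDR = 0.00384) was 0.53 without the deeper Ctrl library (edgeR FDR = 0.139) and 0.74 without VHL-restored replicate 2 (edgeR FDR = 0.099). With DESeq2 it was 0.71 (DESeq2 FDR = 0.0729). After all libraries were thinned to the depth of VHL-restored replicate 1, in a single random draw, it was 0.32 (edgeR FDR = 0.467). JAG2 (ENSG00000184916.9, chromosome 14 from 105607319 to 105635161, minus strand) overlaps 1 annotated long noncoding RNA on its own strand, so reads could be split there.

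Other ligands of the pathway were scarce in these cells. DLL3, a divergent Delta-like ligand, had 18, 12, 3 and 24 counts, and DLK2, an atypical ligand, had 45, 44, 3 and 59, each in the order of the deeper and the shallower Ctrl library and VHL-restored replicates 1 and 2. Their log2 fold changes of 0.70 (SE 0.463, edgeR FDR = 0.192) and 0.27 (SE 0.342, edgeR FDR = 0.506) did not pass the test. The sign of the DLK2 value rested on single libraries, being -1.28 without VHL-restored replicate 2 and -0.01 without the deeper Ctrl library. DNER, an atypical ligand known from neurons, went the opposite way from the Jagged genes. DNER was at 6.08 and 5.85 CPM in Ctrl and at 0.678 and 1.84 CPM in VHL-restored cells, a log2 fold change of -1.86 (SE 0.305, edgeR FDR = 5.56e-06). The VHL-restored level rested on 2 and 31 counts, so the size of the fall is uncertain. The log2 fold change was -3.13 without VHL-restored replicate 2, -1.70 without VHL-restored replicate 1 and -3.59 after thinning. NOTCH4, DLL1, DLL4 and DLK1 were not analysed here.

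Of the receptors, NOTCH1 passed the test. It was at 131 and 116 CPM in Ctrl and at 86.8 and 92.3 CPM in VHL-restored cells. Both VHL-restored libraries lay below both controls, and the controls differed from each other by more than the VHL-restored libraries did. The log2 fold change was -0.45 (SE 0.0726, edgeR FDR = 4.54e-06), a level 1.36-fold lower, and leaving out any 1 library gave values between -0.54 and -0.37. NOTCH1 (ENSG00000148400.12) lies on the minus strand of chromosome 9 from 139388885 to 139440500, over 1 microRNA gene on its own strand and 1 long noncoding RNA on the other.

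NOTCH2 had the most counts of all members, between 1379 and 10431 a library. It was at 495 and 468 CPM in Ctrl and at 468 and 532 CPM in VHL-restored cells, so the groups overlapped. The log2 fold change of 0.07 (SE 0.0655, edgeR FDR = 0.386) had a 95% interval from -0.07 to 0.20, whose upper end is a 1.15-fold rise. The result turned on the VHL-restored libraries, with 0.14 without replicate 1 (edgeR FDR = 0.00572) and -0.05 without replicate 2 (edgeR FDR = 0.496). It was 0.20 (edgeR FDR = 0.00744) when libraries were scaled to their totals without TMM factors, under which the median of all genes moved from 0.02 to 0.15 and the share of called genes that were higher moved from 50.5% to 62.1%. NOTCH2 (ENSG00000134250.20, chromosome 1 from 120454176 to 120643366, minus strand) shares sequence with the NOTCH2NL copies, so its counts are uncertain to the extent that reads were split. One of these, NOTCH2NLA, had between 1 and 12 counts a library.

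The receptors and the main ligand also differed between the groups in their levels relative to each other. Per kilobase of merged exons, NOTCH2 was 2.83 and 3.01 times as abundant as NOTCH1 in the Ctrl libraries and 4.03 and 4.32 times in the VHL-restored libraries. JAG1 stood at 0.938 and 1.15 times the level of NOTCH1 in Ctrl and at 4.32 and 4.31 times in VHL-restored cells. Against NOTCH2, JAG1 stood at 0.331 and 0.382 times in Ctrl and at 1.07 and 0.998 times in VHL-restored cells. JAG1 was 14.0 and 11.8 times as abundant as JAG2 in Ctrl and 22.6 and 24.2 times in VHL-restored cells. None of these ratios overlapped between the groups, and they are descriptions without a test. Of single genes tested, 80.0% did not overlap either, and each of these ratios holds JAG1 or NOTCH1, which were themselves called. Of the other ratios computed, HES1 over HEY1 did not overlap, while RBPJ over MAML1 and HES1 over NRARP did. The merged exons include those of every annotated isoform, so a level per kilobase is approximate.

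**Figure D2:**
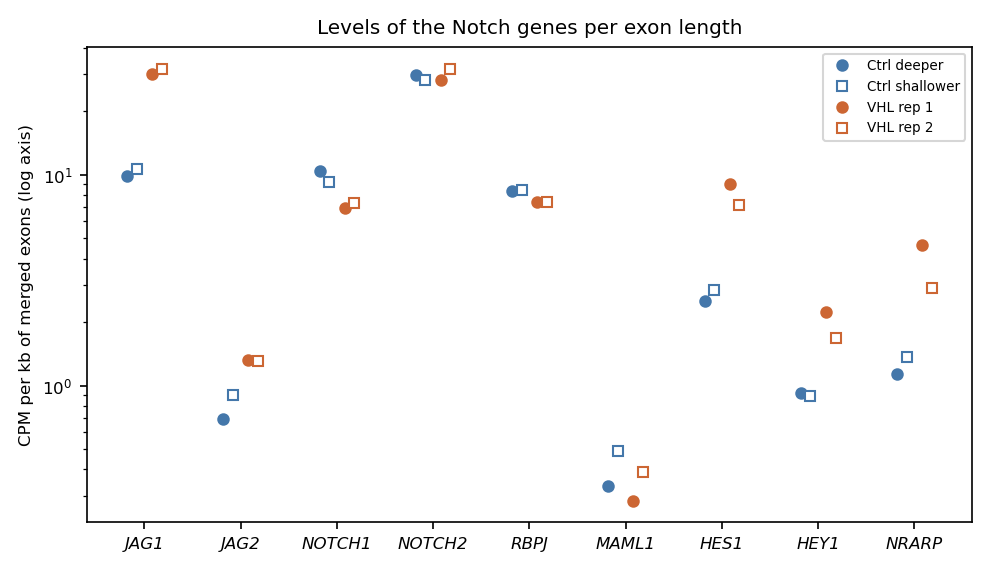
Level of each Notch gene as CPM per kilobase of merged exons (log axis) in the 2 Ctrl libraries (blue) and the 2 VHL-restored libraries (orange). NOTCH2 is the highest in Ctrl at a mean of 28.8, JAG1 reaches its level in VHL-restored cells at a mean of 30.8, and MAML1 is the lowest in both groups.

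On that scale the order of mean levels in Ctrl was NOTCH2 at 28.8, JAG1 at 10.2, NOTCH1 at 9.86, RBPJ at 8.42, HES1 at 2.68, NRARP at 1.25, HEY1 at 0.907, JAG2 at 0.801 and MAML1 at 0.412 CPM per kilobase. The libraries of JAG1 and NOTCH1 overlapped, as did those of HEY1 and JAG2. The merged exons of HEY1 form 1 stretch of 5.487 kb, the whole annotated gene, so any intron counts towards its length. The level of HEY1 per kilobase may thus be understated, and its place beside NRARP and JAG2 depends on this length. In CPM, HEY1 was above NRARP in Ctrl, at 5.03 and 4.92 against 2.99 and 3.59. In VHL-restored cells the order was JAG1 at 30.8, NOTCH2 at 29.9, HES1 at 8.13, RBPJ at 7.39, NOTCH1 at 7.15, NRARP at 3.76, HEY1 at 1.96, JAG2 at 1.32 and MAML1 at 0.336. JAG1 and NOTCH2 overlapped there, as did HES1 and RBPJ, and RBPJ and NOTCH1 were separated by less than their counting error. HES1 thus stood below NOTCH1 and RBPJ in both Ctrl libraries and at about their level in VHL-restored cells.

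In the nuclear complex, RBPJ passed the test with a small change and MAML1 did not. RBPJ was at 128 and 130 CPM in Ctrl and at 113 CPM in both VHL-restored libraries. The groups did not overlap, with a log2 fold change of -0.19 (SE 0.0654, edgeR FDR = 0.013), a level 1.14-fold lower. Its size hardly moved with the library left out, from -0.20 to -0.18, but the call was lost without the deeper Ctrl library (edgeR FDR = 0.114), without the shallower one (edgeR FDR = 0.151) and without VHL-restored replicate 2 (edgeR FDR = 0.0718), which leaves 1 member, NOTCH1, lower in each of these fits. The same held for DESeq2, for thinned libraries and for library totals alone, where the value was -0.06 (edgeR FDR = 0.461). RBPJ (ENSG00000168214.20) lies on chromosome 4 from 26165077 to 26436753 on the plus strand, and the annotation lists pseudogenes of it that could share reads. MAML1 (ENSG00000161021.13, chromosome 5 from 179159823 to 179204284, plus strand) had 42 and 44 counts in Ctrl and 5 and 39 in VHL-restored cells. This gave 1.99 and 2.92 CPM in Ctrl and 1.70 and 2.32 CPM in VHL-restored cells, which overlapped. The 5 counts of VHL-restored replicate 1 have a 95% Poisson interval from 0.551 to 3.96 CPM. The log2 fold change of -0.13 (SE 0.350, edgeR FDR = 0.757) had an interval from -0.85 to 0.58, and it was 0.12 without the shallower Ctrl library, so that a change of this size was not detectable at this depth.

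All 3 targets rose. HES1 was at 5.18 and 5.85 CPM in Ctrl, on 109 and 88 counts, and at 18.7 and 14.8 CPM in VHL-restored cells, on 55 and 250 counts. Both VHL-restored libraries were well above both controls. On the log2 scale the change was 1.53 (SE 0.181, edgeR FDR = 2.38e-08), a 2.88-fold rise with a 95% interval from 2.23 to 3.73, and leaving out any 1 library gave values between 1.44 and 1.76. HES1 (ENSG00000114315.4) lies on the plus strand of chromosome 3 from 193853937 to 193856521, with no other annotated gene across it.

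NRARP, the feedback inhibitor, was at 2.99 and 3.59 CPM in Ctrl and at 12.2 and 7.66 CPM in VHL-restored cells, on 63, 54, 36 and 129 counts. The groups did not overlap, while the VHL-restored libraries differed by more than the controls did. NRARP had a log2 fold change of 1.42 (SE 0.248, edgeR FDR = 1.28e-05), or 2.69-fold with an interval from 1.89 to 3.82, and it ranged from 1.23 to 1.90 with each library left out. NRARP (ENSG00000198435.4, chromosome 9 from 140194083 to 140196723, minus strand) lies opposite 1 annotated long noncoding RNA.

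HEY1 was at 5.03 and 4.92 CPM in Ctrl and at 12.2 and 9.26 CPM in VHL-restored cells. The controls were nearly equal, and both VHL-restored libraries were above them. HEY1 had a log2 fold change of 1.00 (SE 0.205, edgeR FDR = 0.000114), or 2.0-fold with an interval from 1.49 to 2.67, and it stayed between 0.89 and 1.29 with each library left out. HEY1 (ENSG00000164683.17) lies on the minus strand of chromosome 8 from 80674606 to 80680092. All 3 targets had their highest value in VHL-restored replicate 1, the shallowest library, and without it their changes were still called. Of the tested genes, 4.95% had a larger log2 fold change than HES1, 5.58% than NRARP and 10.5% than HEY1.

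**Figure D3:**
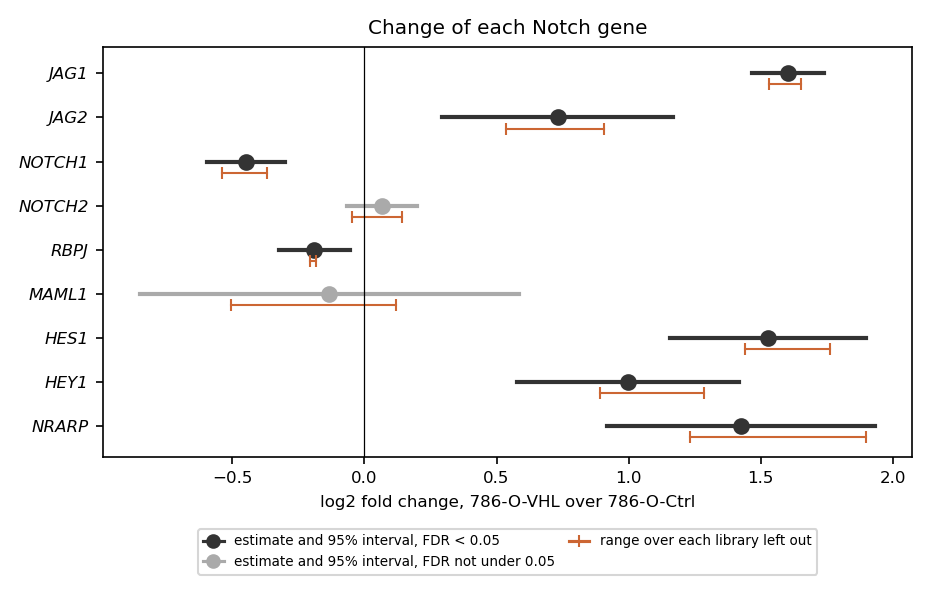
Log2 fold change of each Notch gene, VHL-restored over Ctrl (points), with its 95% interval (thick line, black where the edgeR FDR is under 0.05 and gray where not) and, below it, the range of values when each library is left out in turn (orange). JAG1, JAG2, HES1, HEY1 and NRARP lie to the right of 0 with both bars, NOTCH1 and RBPJ to the left, and the bars of NOTCH2 and MAML1 span 0.

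Of all genes tested, those closest to JAG1 in their centred log2 CPM over the 4 libraries were CNIH3, RCAN1 and TRPV2, at root mean square distances of 0.0152, 0.0191 and 0.0400. Their log2 fold changes were 1.60, 1.63 and 1.91.

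A further 78 genes of the pathway, in 8 roles, were examined. Of these, 72 had a row and 71 were tested, and 36 were higher and 19 lower in VHL-restored cells. With library totals alone in place of TMM, 41 were higher and 13 lower. Of all genes tested 32.6% were higher and 31.9% lower, and the share of the 71 that was lower was near the latter. Their median log2 fold change was 0.23. With DESeq2, 29 were higher and 15 lower, and after thinning to the shallowest depth 26 were higher and 12 lower. The other target genes were the role with the largest median, at 0.99, with 9 of 11 higher and 2 lower against the same shares of all genes. This role is a list that holds further genes of the HES family, and whether Notch controls each listed gene in these cells was not tested. The largest rises in this role were those of HES2, of the HES family, with a log2 fold change of 2.46 (SE 0.585, edgeR FDR = 0.000598), and of the repressor gene SNAI2, with 1.47 (SE 0.0980, edgeR FDR = 2.2e-13). HES2 was nearly silent in Ctrl, with 4 and 5 counts, and had 4 and 24 in VHL-restored cells. At these counts HES2 was not tested without VHL-restored replicate 2 or after thinning. HES4, HES6 and HES7, singled out after their values were seen, rose as well, with log2 fold changes of 1.12, 1.02 and 0.93. The HES7 call was lost without VHL-restored replicate 2 (edgeR FDR = 0.143) and after thinning, where the value was 0.55 (edgeR FDR = 0.265). HEY2 had no count in any library, and the 3 counts that a count of 0 allows are 0.142 CPM in the deepest library and 1.02 CPM in the shallowest, for counting error only, and HES5 and HEYL were not analysed here. The largest fall among targets was that of CCND1, cyclin D1. Control by pathways other than Notch is possible for the targets that rose as well as for those that fell, and it was not tested. CCND1 was at 1186 and 1213 CPM in Ctrl and at 462 and 465 CPM in VHL-restored cells, a log2 fold change of -1.37 (SE 0.0607, edgeR FDR = 2.55e-17).

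**Figure D4:**
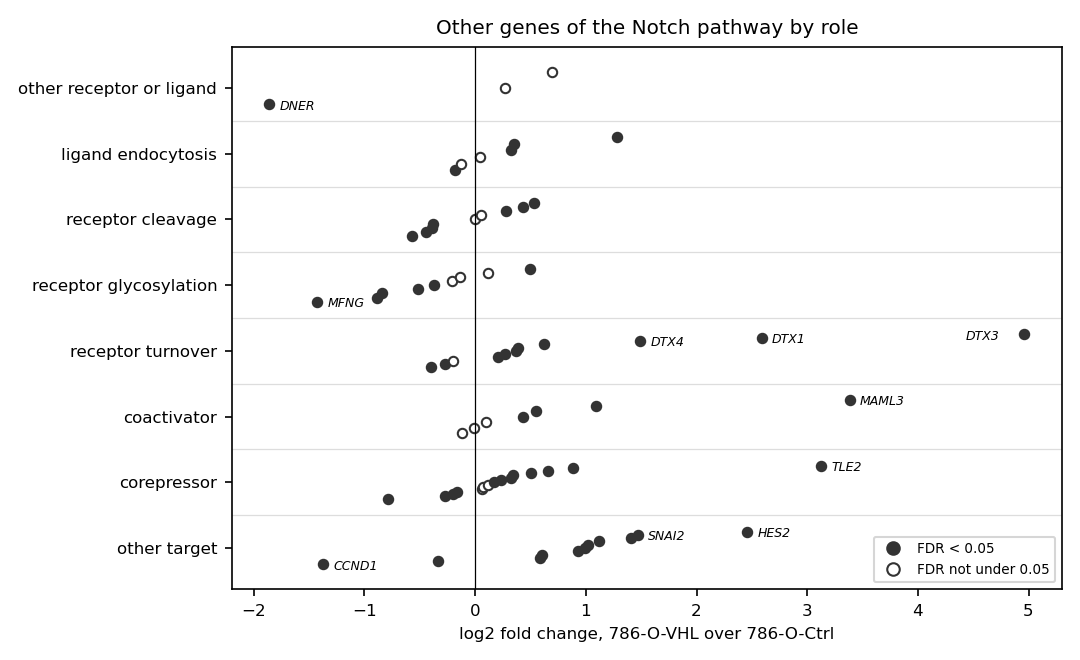
Log2 fold change, VHL-restored over Ctrl, of the 71 tested pathway genes other than the members, by role (rows), with filled points for an edgeR FDR under 0.05 and open points for the rest; points are spread vertically within a role for clarity. The genes farthest from 0 are named. Most points of the target role lie to the right of 0, those of receptor glycosylation mostly to the left.

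Of 9 genes for the sugars on Notch receptors, 5 were lower and 1 was higher, beside 31.9% and 32.6% of all genes, and the median was -0.37 on the log2 scale. POFUT1, which adds the O-fucose that Fringe enzymes extend, was at 216 and 215 CPM in Ctrl and at 114 and 118 CPM in VHL-restored cells, a log2 fold change of -0.89 (SE 0.0656, edgeR FDR = 1.92e-12). The 3 Fringe genes, whose products tune the response of receptors to Delta and Jagged ligands, went different ways. MFNG fell from 34.0 and 32.6 CPM to 9.50 and 13.1 CPM, a log2 fold change of -1.43 (SE 0.129, edgeR FDR = 1.13e-10), and LFNG had a log2 fold change of -0.37 (SE 0.0657, edgeR FDR = 1.45e-05). RFNG rose by a log2 fold change of 0.49 (SE 0.0941, edgeR FDR = 4.5e-05). LFNG was named after its value was seen.

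Of 9 genes for receptor cleavage, which encode proteases and γ-secretase subunits, 3 were higher and 4 lower, with a median of 0.00. The share higher was close to the 32.6% of all genes, of which 31.9% were lower. ADAM10, which makes the cut outside the membrane, rose by a log2 fold change of 0.44 (SE 0.0617, edgeR FDR = 5.48e-07). FURIN, which cleaves the precursor, had a log2 fold change of -0.44 (SE 0.0664, edgeR FDR = 1.51e-06). Of the γ-secretase subunits, nicastrin (NCSTN) had a log2 fold change of -0.57 (SE 0.0652, edgeR FDR = 1.38e-08).

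On the ligand side, 3 of 6 genes for the endocytosis of ligands were higher and 1 was lower (32.6% and 31.9% of all genes), with a median of 0.19. MIB1, a ubiquitin ligase that acts on ligands, had a log2 fold change of 0.35 (SE 0.0704, edgeR FDR = 8.06e-05). NEURL1, of similar function, rose by 1.28 (SE 0.406, edgeR FDR = 0.00727) on 17, 19, 4 and 46 counts, and this call was lost with DESeq2 (1.09, DESeq2 FDR = 0.205), without VHL-restored replicate 2, where the value was 0.43, and without the deeper Ctrl library, where it was 0.92. Among genes of receptor turnover 8 of 11 were higher and 2 lower (32.6% and 31.9% of all genes), with a median of 0.37. In this role DTX1, a Deltex gene and itself a known Notch target, had 7 and 3 counts in Ctrl and 7 and 26 in VHL-restored cells, a log2 fold change of 2.59 (SE 0.557, edgeR FDR = 0.000198). DTX3 had 0 and 1 counts in Ctrl and 5 and 17 in VHL-restored cells, a ratio of 40.1 with a 95% counting interval from 6.49 to 1657. The edgeR FDR of DTX3 was 4.6e-05, its fitted value depends on the prior count, and without VHL-restored replicate 2 it was not tested. NEDD4, a ubiquitin ligase, had a log2 fold change of -0.40 (SE 0.0823, edgeR FDR = 0.000127), and this call was lost after thinning (edgeR FDR = 0.0587).

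Of the coactivators, 4 of 7 were higher, and 0 were lower by edgeR, DESeq2 or limma-voom, also at an unadjusted p under 0.05. Of all genes 32.6% were higher and 31.9% lower. The median log2 fold change of the 7 was 0.43. MAML3, a paralog of MAML1, rose from 5 and 8 counts in Ctrl to 6 and 74 in VHL-restored cells, at 0.237, 0.532, 2.03 and 4.39 CPM. Its log2 fold change was 3.38 (SE 0.457, edgeR FDR = 2.51e-07), and it was 2.45 without VHL-restored replicate 2 (edgeR FDR = 0.0446) and 2.80 without the deeper Ctrl library. KAT2B, a histone acetyltransferase, rose by a log2 fold change of 1.09 (SE 0.134, edgeR FDR = 4.59e-08). Of 15 corepressor genes, 8 were higher and 4 lower, with a median of 0.17, and the share lower was near the 31.9% of all genes, of which 32.6% were higher. TLE2, a Groucho-family partner of HES proteins, was at 1.28 and 1.99 CPM in Ctrl and at 15.3 and 13.5 CPM in VHL-restored cells, a log2 fold change of 3.13 (SE 0.241, edgeR FDR = 4.69e-12). L3MBTL3, which binds RBPJ, rose by 0.88 (SE 0.228, edgeR FDR = 0.00136). HDAC1 had a log2 fold change of -0.78 (SE 0.0663, edgeR FDR = 3.15e-11).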

How the data were processed

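From total RNA the authors made Illumina libraries, mapped the reads to hg19 and deposited the raw counts of each gene as 1 table without normalization. Per the labels, STAR and CASAVA were among the tools, without version or role. How reads were counted, with or without strand and on which annotation, is not given in the sources used here. Both 786-O-Ctrl columns bear the same replicate number and were used without a number. Columns of no sample of the series numbered 0.

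The test was that of edgeR 4.0.16 under R 4.3.3 (filterByExpr with a minimum count of 10, TMM, quasi-likelihood F test, group as the only term, Benjamini-Hochberg adjustment over 12335 genes). Standard errors are those implied by F. Replicates differed beyond sampling noise, with a chi-square per degree of freedom of 2.25 (Ctrl) and 2.76 (VHL-restored). Gene positions and merged exon lengths came from GENCODE (GRCh37), promoter sequences from RefSeq (GRCh38.p14). The script was tested on simulated data. Alternatives were DESeq2 1.42.0, limma-voom (limma 3.58.1), RLE factors, library totals, no filter, at least 10 counts in every library, thinning to 2807779 counts, and each library left out. Thinning was a single random draw, so each value after it holds the noise of that draw.

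The members and gene lists were chosen with earlier results of these data known. Named were all members, receptors and ligands, of each other role at most 2 genes per direction with the largest change at an FDR under 0.01, and the 3 genes nearest in pattern to the member with the smallest p. Not every gene that this rule names is reported here.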

Additional observations from a re-analysis of the deposited data

How the results depend on the processing

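JAG1, HES1, HEY1, NRARP and NOTCH1 kept their direction and an FDR under 0.05 under all 11 alternatives. Their log2 fold changes ranged from 1.53 to 1.74, from 1.32 to 1.76, from 0.89 to 1.29, from 1.23 to 1.90 and from -0.54 to -0.29. RBPJ was lost with DESeq2 (-0.20), with library totals alone (-0.056), after thinning (-0.18) and without either Ctrl library or VHL-restored replicate 2 (-0.20 to -0.18), so that the number of members lower was 1 under each of these and ranged from 1 to 2 with each library left out. JAG2 was lost with DESeq2 (0.71) and after thinning (0.32), and ranged from 0.53 to 0.91 with each library left out. NOTCH2 passed with library totals alone (0.20), and ranged from -0.048 to 0.14 with each library left out. MAML1 ranged from -0.51 to 0.12 with each library left out and, as it has 5 counts in VHL-restored replicate 1, gave no value under that minimum in every library or after thinning. DLK2 was -0.0128 without the deeper Ctrl library and ranged from -1.28 to 0.50 with each library left out. After thinning, 12 genes of the pathway list were lower, and with each library left out between 12 and 20. Genes past 4-fold with an FDR under 0.01 numbered 550, and 232 under the minimum of 10 counts in every library and 334 after thinning. These requirements test fewer genes (10730) or use fewer counts. For the other changes the cause was not tested. No paired analysis was possible because both 786-O-Ctrl columns of the count table carry the same replicate number. VHL-restored replicate 1 held 2807779 counts, and 3 counts there are 1.02 CPM. This depth limits statements on MAML1, JAG2, DLL3, DLK2, DNER, DTX1, DTX3, HES2, MAML3 and NEURL1.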
